A study of Caenorhabditis elegans with 4 samples.

Results

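The col genes of the nematode Caenorhabditis elegans form its large family of cuticle collagens, and 150 of them with a probe on the array are described here, out of 20341 named genes with a probe. They are all genes whose symbol begins with col- and a number, except col-7, col-19, col-41, col-62, col-90, col-137 and col-169. All 7 of those had 1 sign on the 4 arrays and a mean change of at least 1.5-fold, so counts over the 150 genes run lower than counts over the whole family. The RefSeq gene table holds 159 col genes, of which 2, col-3 and col-126, had no probe. Of the 150 genes, 3 are annotated as pseudogenes (col-66, col-136 and col-182).

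The cuticle is the collagen-rich exoskeleton that the epidermis (hypodermis) secretes beneath the old one before each molt. Its collagens are small proteins with interrupted Gly-X-Y repeats and clusters of cysteines, which assemble as trimers, are hydroxylated on proline and trimmed in the secretory pathway, and are crosslinked outside the cell. Their transcripts rise and fall in waves within every molting cycle, and sets of collagen genes differ between larval and adult cuticles, so their levels in a population depend closely on the stage at which animals are collected.

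Both genotypes carried isp-1(qm150), an allele of the gene that encodes the Rieske subunit of complex III in mitochondria. The isp-1(qm150) animals were set against isp-1(qm150);ceh-23(ms23) animals, called the double mutant here, which had in addition ms23, an allele of ceh-23, a homeodomain gene. RNA came from whole, synchronized mid-L4 animals raised on OP50 bacteria at 20 C. There were 3 biological replicates on 4 arrays, each holding both genotypes, one in Cy5 and the other in Cy3, and replicate 1 was measured on an additional array with the dyes exchanged (the dye-flip array). The comparison addresses the part of ceh-23 in gene expression under an impaired respiratory chain, and it holds no animals with an intact isp-1 gene. The single ceh-23 probe exceeded background on 2 arrays for either genotype. Its log2 ratio was -0.09 (SD 0.10, limma adjusted p = 0.459), and where it lies relative to the ms23 lesion was not given, so it does not check the genotype. Median spot signals were 152 to 198 for the double mutant and 109.5 to 258.5 for isp-1, over local backgrounds of 38 to 63. Every ratio below is the log2 of the double mutant over isp-1, so a positive value means a higher signal in the double mutant, and replicate 1 is the mean of its 2 arrays. Whether a replicate was grown as a separate culture is not said beyond the word biological. The p-values rest on the spread between these 3 replicates, whose small number limits the precision. Limma moderates each gene's spread toward that of all genes, which supply 4.09 of the 6.09 degrees of freedom.

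Most of the family was measured, and brightly. A gene was tested if a probe was well above background in the same genotype in all 3 replicates, and 128 of the 150 genes passed. Of these, 126 passed in both genotypes, col-74 passed only through the double mutant and col-96 only through isp-1. No spot of the family was saturated. Over the probes of the 150 genes, the median signal was 4314 to 5935 in the double mutant and 2395 to 8531 in isp-1, and the brightest spot reached 486620, for col-129 in isp-1 on the first array of replicate 1. The signal of a spot also depends on its probe, so these values do not rank transcripts.

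Of the 22 genes not tested, 18 had no probe kept and 9 were above background on no array in either genotype. Among the latter was col-99, which encodes a transmembrane collagen of neurons and other tissues and not a structural cuticle collagen. Its spot gave 40 to 87 in the double mutant and 42 to 130 in isp-1. The other 4 genes, col-76, col-104, col-124 and col-161, had bright probes but lost a replicate because the scanner software marked their spot as an outlier. With these spots kept, col-124 had the lowest ratio of any col gene here, with -1.40 on the dye-flip array, -3.19 on the other array of replicate 1, then -1.94 for replicate 2 and -1.55 for replicate 3 (mean -1.93, SD 0.37, adjusted p = 0.0508).

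The col genes moved in both directions, and more of them were lower than higher in the double mutant. Over the 128 tested genes, the mean log2 ratio had a median of -0.15 and a range of -1.61 to 0.84, with 74 genes below 0 and 54 above. Over all 13685 genes tested the median was -0.01, with 7076 genes below 0 and 6609 above. The spread between genes was also wider in the family, with an SD over genes of 0.54 against 0.37 over all genes tested. In single replicates the median of the family was -0.10, -0.22 and -0.04 in replicates 1, 2 and 3, against -0.02, -0.05 and 0.02 over all genes tested. The plot of ranked ratios shows a lower end that is longer than the upper end and a replicate 3 that lies nearer to 0 than the others at both ends.

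**Figure D1:**
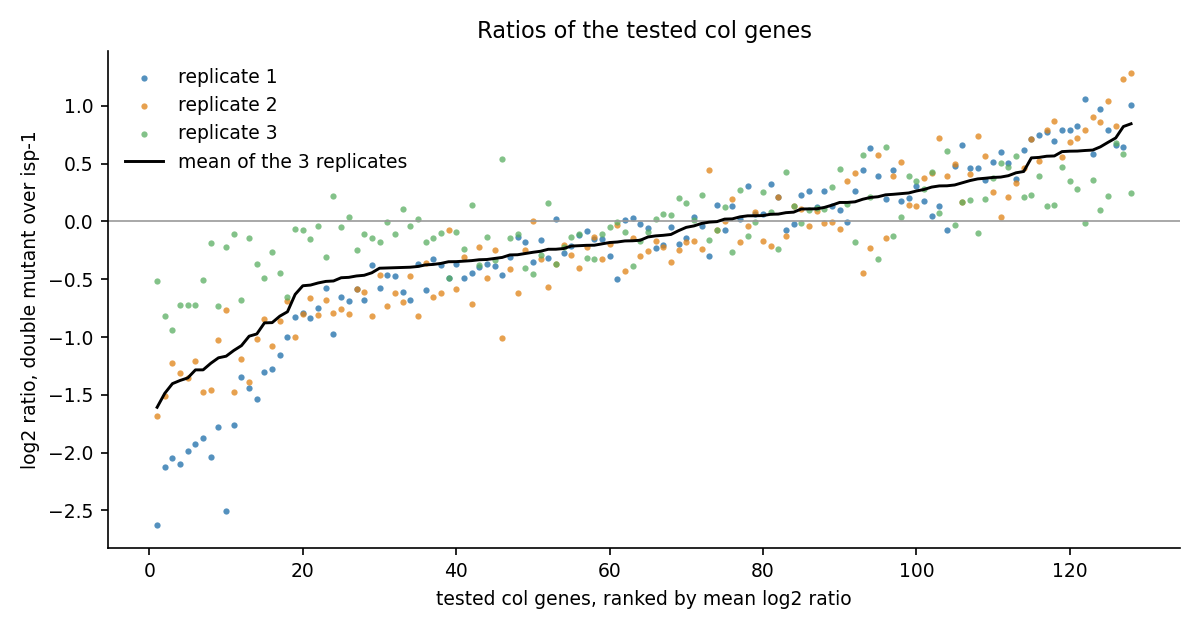
Log2 ratios of the double mutant over isp-1 for the 128 tested col genes (y axis), ranked by their mean (x axis). Points are the 3 replicates and the black line is their mean, which runs from -1.61 to 0.84, and at both ends the points of replicate 3 mostly lie closest to 0.

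At an adjusted p of 0.05 in limma, 13 of the 128 genes changed, where 3.37% of all genes tested did. Of the 13, 10 fell and 3 rose, and of all genes tested 2.59% fell and 0.775% rose. For the family these counts come to 7.81% and 2.34%. A plain count, without any estimate of variance, took genes that had 1 sign across the 4 arrays and whose mean was 1.5-fold or more. It held 28 of the 128 genes (21.9%, against 9.27% of all genes tested). Of these, 19 were lower (14.8%) and 9 higher (7.03%), where 7.89% of all genes tested were lower and 1.37% higher. The contrast with all genes depends on the processing. From the scanner's own log ratio, 19 of the 128 genes were lower and 11 higher, where 11.3% of all genes tested were lower and 6.18% higher. With the 7 genes set aside added back, 135 col genes were tested, of which 12 fell, 6 rose, and 23 were lower and 12 higher by the plain count. The adjusted values sit at the edge of the threshold, since the 13 genes that passed had 0.0495 or 0.0496. No col gene passed without background correction, with median centring, without a filter, or with outlier spots kept. In each of these settings at most 1 gene rose and 1 fell over all genes tested. With trend and robust moderation the balance turned in the family and over all genes tested. There 25 of the 128 col genes were higher and 16 lower, where 10.7% of all genes tested were higher and 3.15% lower. All 13 lost their call without replicate 2. Without replicate 1 the calls left were those of col-106 and col-184, and without replicate 3 all 13 passed. With the dye-flip array alone for replicate 1, col-17 and col-128 did not pass. Nor did col-179 with only the brightest probe of each gene, or col-122 and col-178 with trend and robust moderation.

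The 10 genes that fell were col-184, col-106, col-143, col-181, col-179, col-9, col-139, col-78, col-122 and col-178, all of them cuticle collagens by family, and no individual function is given to them here. The strongest was col-184 (F15A2.1, chromosome X). Its ratios were -2.47 on the dye-flip array and -1.77 on the other array of replicate 1, followed by -1.51 for replicate 2 and -0.82 for replicate 3. The gene was lower by 2.80-fold, with a mean of -1.49 (SD 0.65, n = 3, adjusted p = 0.0495), and all 4 arrays were low. The gene has 2 probes, whose means were -1.60 and -1.37.

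In col-106 (Y77E11A.15, chromosome IV), a bright single probe, the ratios in the same order of arrays were -1.91, -2.17, -1.23 and -0.94. Its spot read 56956 in the double mutant and 159570 in isp-1 on the dye-flip array, where the double mutant was in Cy5, and 23460 against 166830 on the first array of replicate 1, where it was in Cy3. The gene was 2.64-fold lower (mean -1.40, SD 0.57, n = 3). It was therefore low in both dye orientations, and with col-184 it is one of the genes that still passed when replicate 1 was left out.

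The genes col-143 (T15B7.3, chromosome V) and col-181 (W03G11.1, chromosome X) followed closely. The arrays gave -2.04, -2.15, -1.31 and -0.72 for col-143, with a mean of -1.38 (SD 0.69). For col-181 they gave -2.05, -1.92, -1.36 and -0.72, with a mean of -1.35 (SD 0.63). In both genes every array was below 0 and replicate 3 was the least low.

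The gene with the most probes, col-179 (C34F6.3, chromosome X), had 12 of them, spread over the signal range from 9.47 to 16.56 on the log2 scale. All 12 were lower in the double mutant in replicates 1 and 2, and the 11 with a value in every replicate had means between -1.64 and -0.92. The arrays gave -1.93, -1.91, -1.20 and -0.72 for the gene, which was 2.44-fold lower (mean -1.28, SD 0.60). Its neighbour col-178 (C34F6.2) was lower by less, with -1.03, -0.97, -0.68 and -0.66 (mean -0.78, SD 0.19), and had the smallest spread between replicates of the 10 genes that fell.

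The remaining genes that fell covered dim and bright spots. The dimmest was col-78 (W07A12.5, chromosome II), with spot signals of 247 to 626 in the double mutant and 449 to 1385 in isp-1 and ratios of -1.41, -1.19, -0.84 and -0.49 (mean -0.88, SD 0.40, adjusted p = 0.0496). One of the brightest was col-122 (T05A1.2, chromosome IV), with signals of 75297 to 173740 and 74316 to 308280 and ratios of -1.03, -1.27, -0.86 and -0.45 (mean -0.82, SD 0.35). Between them in signal lay col-9 (F54B11.1, chromosome X) at a mean of -1.18 (SD 0.54) and col-139 (F41F3.4, chromosome V) at -1.07 (SD 0.35). These genes were taken because they fell, so their shared direction says nothing on how ratios depend on signal.

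The genes given next also had low means, but a wider spread between replicates, and did not pass. The lowest mean of all tested col genes belonged to col-8 (F11H8.3, chromosome III), whose arrays gave -2.51, -2.74, -1.68 and -0.51 (mean -1.61, 3.05-fold lower, SD 1.06, adjusted p = 0.0562). For col-81 they gave -1.59, -2.15, -1.48 and -0.51 (mean -1.28, SD 0.70, adjusted p = 0.0502). The genes with the largest spread were col-129, col-8 and col-140. The arrays of col-129 (M18.1, chromosome IV) gave -2.14, -2.87, -0.77 and -0.22 (mean -1.17, SD 1.19, adjusted p = 0.104), and those of col-140 (F26F12.1, chromosome V) gave -2.02, -2.06, -1.45 and -0.19 (mean -1.23, SD 0.95, adjusted p = 0.0700). In both, replicate 3 was closest to 0 and no array was above 0.

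The 19 lower genes of the plain count, whose mean but not every array reached 1.5-fold, shared this order of size, since replicate 3 was the smallest in all 19 and replicate 1 the largest in 18. Their medians were -1.78, -1.20 and -0.51 in replicates 1, 2 and 3. Genes of other tissues moved in the same order. The 6 vitellogenin genes, whose yolk proteins are made in the intestine of reproducing animals, had medians of -2.72, -1.99 and -0.90, and all 6 were below 0 in every replicate (range of the means -2.18 to -1.39). The 24 major sperm protein genes had medians of -1.83, -1.29 and -0.52 and were also all below 0 in every replicate. Over all 13685 genes tested, the SD over genes was 0.49, 0.49 and 0.24 in replicates 1, 2 and 3. Small ratios in replicate 3 were therefore not particular to any of these groups. Of 7 listed markers of the cuticle-making epidermis, 6 were tested, and their means lay above 0, with a median of 0.38 and a range of 0.20 to 0.79. The 6 include the cuticle collagens rol-6, sqt-3 and dpy-7, which are also on the list of named collagens below, where 4 of 17 lay below 0. In replicate 1 sqt-3 was at -0.02. Their part in the collagen ratios was not tested, and in whole animals less tissue or an earlier stage and less RNA per cell cannot be told apart. The arrays of replicate 1 shared a slide, as did those of replicates 2 and 3. From replicate 2 to replicate 3 the double mutant's dye changed from Cy5 to Cy3. The median isp-1 spot signal went from 258.5 to 109.5. A cause of the smaller ratios in replicate 3 was not tested.

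**Figure D2:**
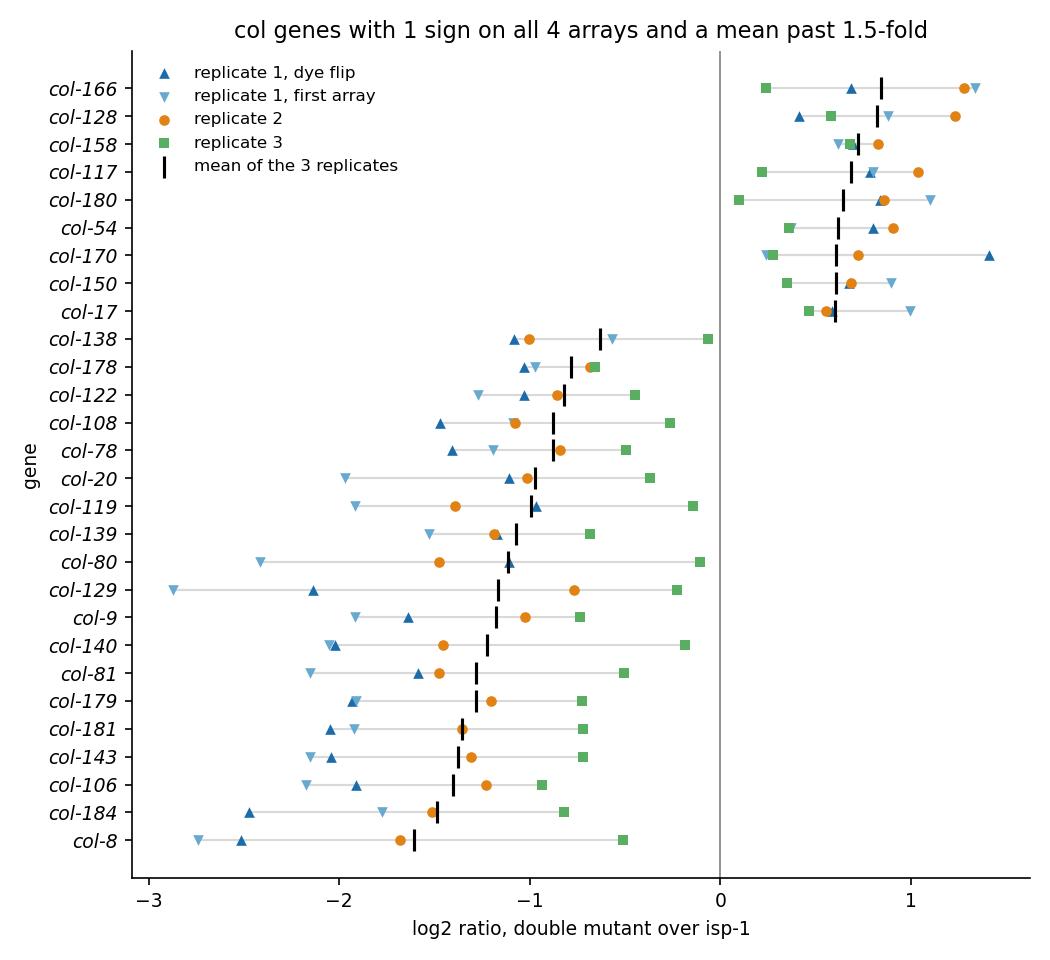
Log2 ratios on each of the 4 arrays (x axis) for the 28 col genes that had 1 sign across the arrays and a mean of 1.5-fold or more (y axis), with the mean of the 3 replicates as a black tick. The 19 lower genes run from -1.61 to -0.63 and the 9 higher ones from 0.60 to 0.84, and the squares of replicate 3 lie nearest to 0 in all 19 lower genes.

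The genes that rose did so by less than the strongest genes that fell. The 3 that passed were col-128, col-158 and col-17. In col-128 (F12F6.9, chromosome IV) the dye-flip array gave 0.42, the other array of replicate 1 0.88, replicate 2 1.23 and replicate 3 0.58. It was 1.77-fold higher in the double mutant (mean 0.82, SD 0.36, n = 3, adjusted p = 0.0495). The most even of the genes that passed was col-158 (D2023.7, chromosome V), with 0.70, 0.62, 0.83 and 0.68 (mean 0.72, SD 0.09, adjusted p = 0.0495), although its spot was dim at 255 to 361 in the double mutant and 113 to 241 in isp-1. From the scanner's own log ratio its mean was 1.12. The third, col-17 (F11G11.10, chromosome II), had 0.59, 0.99, 0.55 and 0.47 (mean 0.60, 1.52-fold, SD 0.17). None of the 3 had an array below 0.

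Above them in size but with a wider spread was col-166 (T07H6.3, chromosome X), the highest mean of the tested genes, with arrays of 0.69, 1.34, 1.28 and 0.24 (mean 0.84, SD 0.54, adjusted p = 0.0597). Its 2 probes had means of 0.74 and 0.95. A brighter gene was col-117 (T28C6.4, chromosome IV), with signals of 119180 to 173110 in the double mutant against 48886 to 113020 in isp-1 and a mean of 0.68 (SD 0.42, adjusted p = 0.0629). Further genes of the upper end were col-180 at 0.64 (SD 0.47), col-54 at 0.62 (SD 0.27), col-170 at 0.61 (SD 0.29), col-150 at 0.61 (SD 0.23, adjusted p = 0.0502) and col-165 at 0.57 (SD 0.38). All of these were above 0 on every array, and none passed. Among the 9 higher genes replicate 3 was the smallest in 8, while replicate 1 was the largest in 4 and replicate 2 in 5.

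Some members are known from other work. Overexpression of col-10, col-13 or col-120 is known to lengthen life in C. elegans, and these 3 genes did not move together. Replicates 1, 2 and 3 gave 1.06, 0.79 and -0.01 for col-10 (mean 0.61, SD 0.56, adjusted p = 0.0996). They gave 0.02, -0.37 and -0.37 for col-13 (mean -0.24, SD 0.22, adjusted p = 0.199) and -0.47, -0.73 and -0.01 for col-120 (mean -0.40, SD 0.37, adjusted p = 0.124). None of the 3 passed, and replicate 3 of col-10 was at about 0. The neighbour of col-13, col-12, is known as a near-identical copy, so its probe and those of col-13 may share transcripts, and the array files give no probe sequence to check this. It had -0.30, 0.45 and -0.16 (mean -0.01, SD 0.40), which is no shared direction. For col-14 the mean was 0.30 (SD 0.22, adjusted p = 0.132).

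The brightest spots of the family lay mostly below 0. The 8 tested genes with the highest normalized signal were col-36, col-168, col-42, col-122, col-20, col-129, col-140 and col-147. Of these, col-168 (mean 0.43, SD 0.21) and col-147 (mean 0.42, SD 0.12) were above 0, and col-20 (mean -0.97, SD 0.59, adjusted p = 0.0555), col-42 (-0.40, SD 0.26) and col-36 (-0.40, SD 0.33) were below. With the tested genes split by signal into 3 groups of about equal size, the bright group had 33 of 43 genes below 0 and a median of -0.33, the middle group 25 of 43 and -0.21, and the dim group 16 of 42 and 0.09. Over the 183 other genes in the signal range of the bright group, the median was 0.01 and 44.8% were below 0. The range of the dim group held 10940 other genes, so shares over all genes tested mostly describe dim spots. Loess centres each array's ratios along the signal, and few genes lie at its bright end. With median centring, which makes no adjustment along the signal, the bright group had a median of -0.26 with 31 of 43 below 0, and the other genes of that range had 0.09.

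**Figure D3:**
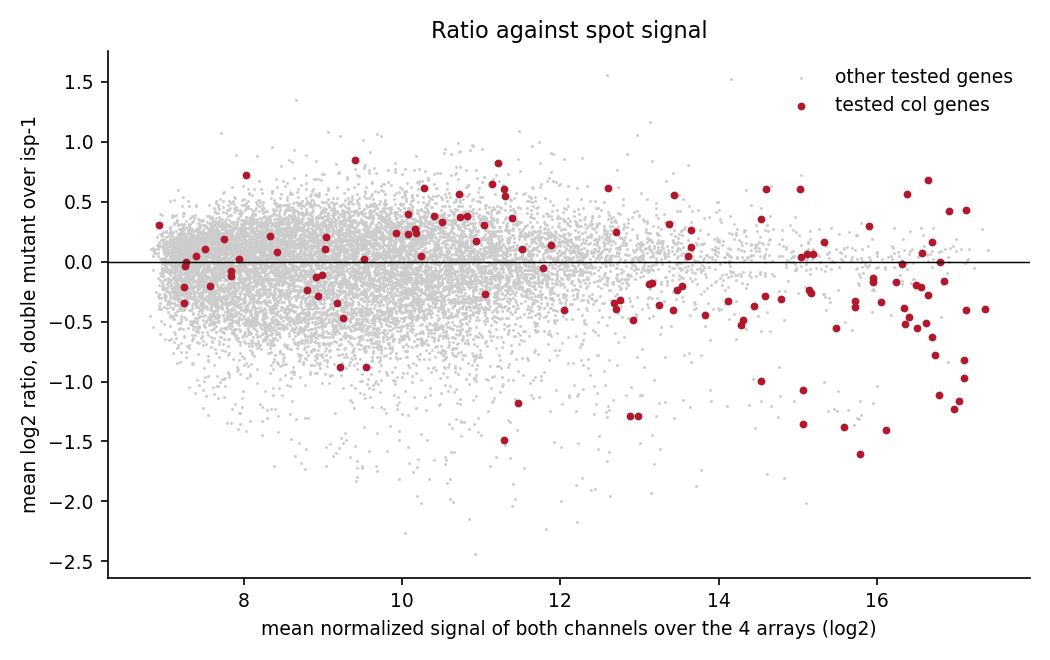
Mean log2 ratio of the double mutant over isp-1 (y axis) against the mean normalized signal of both channels on the log2 scale (x axis), for the 128 tested col genes in red and the other tested genes in grey. In the bright group of the col genes, from 15.07 upward, 33 of 43 lie below 0.

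The arrays of replicate 1 measured the same samples with the dyes exchanged, and most of the brightest spots were lower on the first array. Over the 128 genes their ratios correlated at r = 0.81, with 95 genes of the same sign. For all 13685 genes tested the values were r = 0.67 and 9150 genes. The absolute difference had a median of 0.21 in the dim group, 0.40 in the middle group and 0.30 in the bright group. The signed difference, the first array minus the dye flip, had a median of -0.25 in the bright group, where 35 of 43 genes were lower on the first array and 8 higher, against 0.04 and 0.02 in the dim and middle groups. An example is col-42 (Y69H2.14, chromosome V), with 0.19 on the dye-flip array and -1.14 on the other, and another is col-147, with 1.03 and -0.30. For these genes replicate 1 is the mean of a pair with opposite signs.

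Of the 128 genes, 71 had 1 sign on all 4 arrays, which is 55.5% against 46.2% of all genes tested. In all, 48 were below 0 on all 4 arrays (37.5%, against 25.3% of all genes tested) and 23 above 0 on all 4, where 20.9% of all genes tested were above, while 57 had mixed signs. The dye-flip array and replicate 2, with the double mutant in Cy5 on both, correlated at r = 0.83 over the 128 genes, and the first array of replicate 1 and replicate 2, with opposite dyes, at r = 0.85. With replicate 3 the values were 0.67 for the dye-flip array, 0.63 for the first array of replicate 1 and 0.58 for replicate 2. All genes tested gave 0.81, 0.74, 0.59, 0.57 and 0.55 for these pairs in the same order. These correlations are across genes, which are not independent replicates, and the arrays of replicate 1 share their samples.

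**Figure D4:**
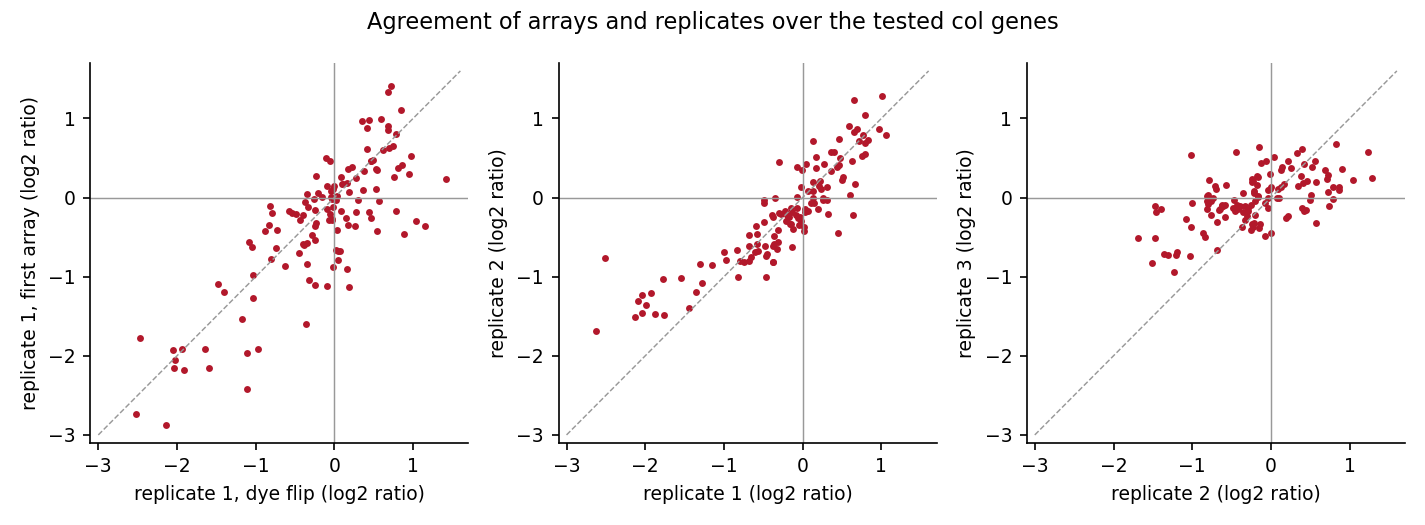
Log2 ratios of the 128 tested col genes on the dye-flip array against the first array of replicate 1 (left), in replicate 1 against replicate 2 (middle) and in replicate 2 against replicate 3 (right), with equality dashed. Replicates 1 and 2 spread along the line, and replicate 3 is compressed, with a range of -0.94 to 0.68.

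Many col genes lie side by side in the genome. In the WBcel235 annotation, 19 pairs of tested genes had no protein-coding gene between them, and 16 of these pairs had the same sign, with a median difference in mean log2 ratio of 0.38. Over all 8128 pairs of tested genes 50.8% had the same sign and the median difference was 0.50. The tightest was the run of col-92, col-93 and col-94 on chromosome III, with means of -0.26 (SD 0.09), -0.21 (SD 0.11) and -0.21 (SD 0.16). On chromosome V, col-144, col-145 and col-10 had 0.56 (SD 0.37), 0.23 (SD 0.32) and 0.61 (SD 0.56), and col-141 and col-142, known as targets of the BMP-like DBL-1 pathway, had -0.33 (SD 0.09) and -0.52 (SD 0.64). The opposite case was col-17 and col-20 on chromosome II, adjacent genes at 0.60 and -0.97. The pairs in this paragraph were chosen after their values were seen, and whether neighbouring paralogs share probe signal was not tested. By chromosome, the median ranged from -0.29 over 11 genes on III, of which 10 were below 0, to 0.08 over 23 genes on X.

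Most genes of several probes gave the same answer on each. Of the 21 tested genes on several kept probes, 3 had probes of opposite sign (col-73, col-110 and col-146), all with small means, and 19 had means within 0.5 of each other on the log2 scale. The other 107 tested genes rest on 1 probe.

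Genes that act with the col genes were set beside them. Of the other named cuticle collagens, the products of rol, sqt, dpy, bli and lon genes known from mutants of body shape, 17 of 21 were tested and none passed, while 7 were higher and 1 lower at an unadjusted p of 0.05, with a median of 0.26. At that unadjusted threshold 70 of the 128 col genes passed (54.7%, against 35.9% of all genes tested), of which 25 were higher and 45 lower, where 13.6% and 22.3% of all genes tested were. The smallest p-values belonged to dpy-8 at 0.56 (SD 0.16, adjusted p = 0.0502), dpy-9 at 0.74 (SD 0.43) and dpy-10 at 0.61 (SD 0.35), genes of cuticle furrows and body shape. The furrow collagen gene dpy-3, with a p-value close to that of dpy-10, lay the other way at -0.46 (SD 0.19, adjusted p = 0.0628), below 0 on all 4 arrays, and is named here after its values were seen. Enzymes of collagen hydroxylation, folding, crosslinking and processing had a median of 0.22, with 20 of 22 listed genes tested and none past the adjusted threshold. Of these, 8 were higher and 1 lower at an unadjusted p of 0.05. Among them were fkb-4, for a peptidyl-prolyl isomerase, at 0.53 (SD 0.20, adjusted p = 0.0546), fkb-5 at 0.42 (SD 0.20), and phy-2, for a prolyl 4-hydroxylase subunit, at 0.45 (SD 0.17, adjusted p = 0.0633). Over both lists the medians lay above 0, where that of the col genes lay below.

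The 6 genes of collagen secretion had a median of -0.10 and none passed at either threshold, with tmem-39 at -0.24 (SD 0.20), tmem-131 at -0.24 (SD 0.23) and sar-1 at -0.11 (SD 0.12). Of 15 listed transcription regulators and signals tied to collagens, 14 were tested and 1 rose. This was nhr-25, a nuclear receptor of epidermal fate and molting, with 0.95, 0.78 and 0.66 in replicates 1, 2 and 3 (mean 0.79, SD 0.15, adjusted p = 0.0495). It rested on 2 of its 5 probes, and its mean was 0.48 without a filter (adjusted p = 0.0962) and 1.25 from the scanner's log ratio. The Smad gene sma-3 had 0.49 (SD 0.18, adjusted p = 0.0570), and lin-29, which drives the switch of the epidermis from larval to adult, had 0.42 (SD 0.20, adjusted p = 0.0724). None of the 4 collagens outside the cuticle passed. Among them, cle-1, for a basement membrane collagen, had -0.35 (SD 0.12) and let-2, for type IV collagen, 0.26 (SD 0.23). The gene mec-5, for a collagen tied to touch sensation, had 0.33 (SD 0.27).

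The 7 col genes set aside reached higher than the other col genes, and on the lower side lay within their range. Their means were 1.56 for col-41, 1.52 for col-90 and 0.89 for col-169 on the higher side, and -0.86 for col-137 on the lower. The adult or late L4 collagens col-7, col-19 and col-62 had -1.16 (SD 0.40), -1.56 (SD 0.87) and -0.82 (SD 0.39). In replicates 1, 2 and 3, col-19 gave -2.33, -1.75 and -0.61, the same order of size as in most of the 19 lower col genes above.

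**Figure D5:**
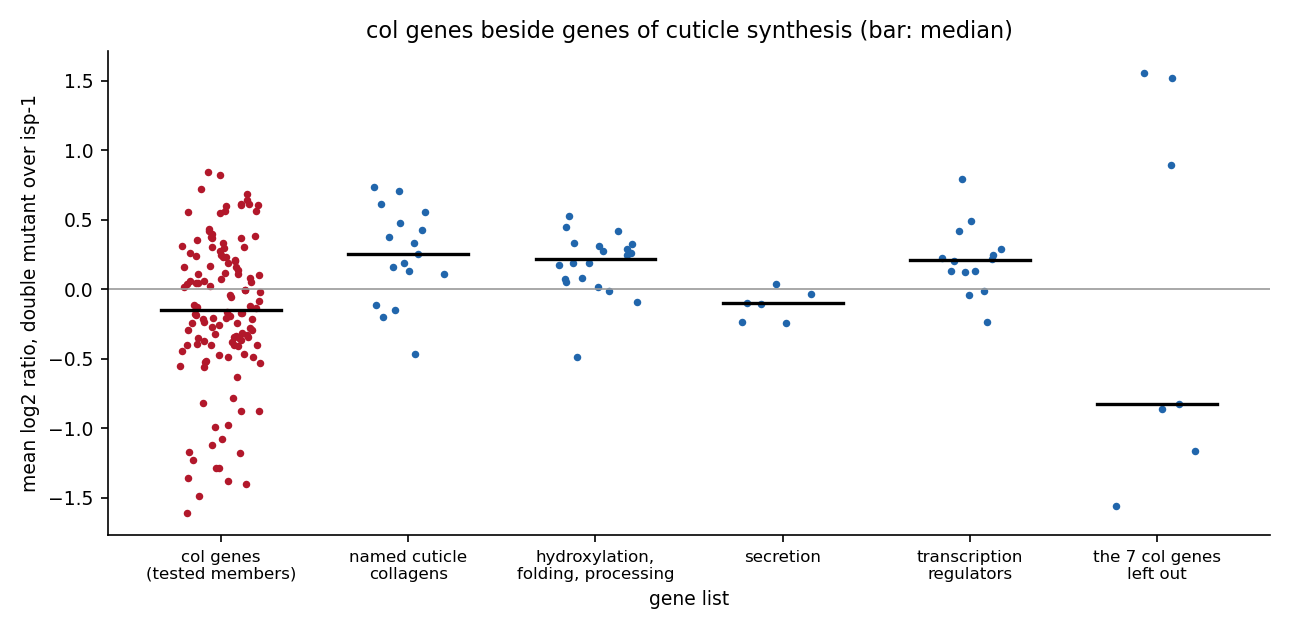
Mean log2 ratio of the double mutant over isp-1 (y axis) for each tested gene of 6 groups (x axis), with the median as a bar. The col genes span -1.61 to 0.84 around a median of -0.15, while named cuticle collagens and processing enzymes have medians of 0.26 and 0.22.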

How the data were processed

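The labels describe total RNA amplified to cRNA and labelled with Cy3 or Cy5. Per the file headers, the authors quantified the arrays with Agilent Feature Extraction 10.5.1.1 (protocol GE2_105_Dec08, design on build ce4). The deposited files hold median pixel intensity values of spots and local background, not normalized, processed intensity values, log10 ratios of Cy5 over Cy3, and flags of 0 or 1, other than intensities, for outlier, saturated and well-measured spots. The deposited series table holds the same log10 ratios, and served as an alternative.

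Median intensities were corrected with limma 3.58.1 (R 4.3.3) by normexp (offset 50) and normalized by loess within arrays, with control and outlier spots at weight 0, and outlier spots (8 to 496 an array) were left out. Ratios were turned by the dye in the labels. Of 43803 spots, 35373 were named through RefSeq (WBcel235), with isoform letters and transcript numbers dropped. The filter kept 26248 of 43603 probes, kept probes were averaged per gene, and 13685 genes were tested with lmFit and eBayes (two-sided, null ratio 0), adjusted by Benjamini-Hochberg over all of them. SD values are over 3 replicates. The fit was run on simulated data with independent noise for each gene. That simulation held no dye, slide or replicate effect, so it does not check the calls given here.

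The members, lists and tests were chosen with earlier results of these data known. Named were the col genes past the threshold, the 10 highest and 10 lowest with 1 sign on all arrays, the 8 brightest, the 3 with the largest SD, col-10, col-12, col-13, col-14, col-17, col-99 and col-120, and up to 3 of each list. Near-identical pairs by protein could not be named, since no protein sequences were used here. Alternatives covered the log ratio, background, centring, filter, outlier spots, probes, moderation, dye, slide, the arrays of replicate 1 and each replicate left out.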

Additional observations from a re-analysis of the deposited data

How the results depend on the processing

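Of the 34 named col genes with a value, 33 kept their sign in all 19 other settings, as did the 18 named genes of the lists. The exception was col-12, near 0, which turned to 0.0064 with an offset of 0, 0.0926 with median centring and 0.12 with the dye-flip array alone, and ran from -0.23 to 0.14 with 1 replicate left out, above 0 without replicate 1 or 3. Most of the named col genes had 1 sign on all 4 arrays, largely by the rule that named them. Leaving out an array or a replicate could therefore not turn their means. Moderation does not change a mean, and the series table repeats the scanner's log ratios. Their agreement in sign was thus partly fixed in advance. Counts past the adjusted threshold moved far more. Reported as 3 higher and 10 lower, they were 0 and 0 without background correction, with median centring, without a filter, with outlier spots kept, and with outlier spots left in the loess fit (added after seeing the data), where 22, 15, 25, 26 and 25 col genes were higher and 44, 12, 46, 47 and 45 lower at an unadjusted p of 0.05 in limma. The smallest adjusted p of a col gene in these settings was 0.0643, 0.456, 0.0962, 0.0508 and 0.0503, so that in the last of them a small shift carried all 13 calls over the edge. At most 1 gene rose and 1 fell past that threshold in each of these settings over all genes tested. For the unadjusted counts, the share over all genes was taken only in the reported fit, at 13.6% higher and 22.3% lower. The adjusted counts of col genes were 25 and 16 with trend and robust moderation, where 10.7% of all genes tested were higher and 3.15% lower. They were 22 and 43 with dye as a covariate (10.1% and 20.2% of all genes), and 10 and 19 with slide as a block (1.28% and 7.96%). The count of higher genes was 9 from the scanner's log ratio and from the series table (also added after seeing the data). It was 8 with an offset of 0, 5 with the strict filter and 6 with the brightest probe. With the first array of replicate 1 alone it was 5, and with the dye-flip array alone it was 2. The lower count stayed between 11 and 14. In these settings 0.84% to 5.55% of all genes tested were higher and 4.43% to 7.79% lower. With 1 replicate left out, the higher count ran from 0 to 28 and the lower from 0 to 49, both 0 without replicate 2. The shares over all genes tested ran from 0% to 14.7% higher and from 0.00725% to 28.6% lower. The plain count of 1 sign on every array and 1.5-fold moved less, at 9 higher and 19 lower. It was 4 to 15 and 17 to 31 when 1 replicate was left out, and 11 lower with median centring. Of all genes tested, 1.37% were higher and 7.89% lower by this count. Their shares were 1.18% to 2.88% and 5.62% to 14.8% with 1 replicate left out, and 5.2% lower with median centring. From the scanner's log ratio the plain count of col genes was 11 higher and 19 lower, while the shares over all genes were 6.18% and 11.3%. The cause was not tested. Each array holds both genotypes, so the genotypes are paired on it. Of the 128 tested genes, 126 passed the filter in both genotypes, whereas 18 genes without a kept probe have no measured ratio. The count of higher genes still moved with the offset and the log ratio used, as given above. How far background limits the dim tested genes was not tested.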
